A study of Homo sapiens with 2 samples.

Results

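Histone genes were compared between cells labelled MiaPaca2 (MIA PaCa-2, a line from a human pancreatic adenocarcinoma) that had been given iMQT_020 for 48 hours and cells of the same label given vehicle for 48 hours. By the series text, the compound inhibits a transporter of glutamine into mitochondria. Each treatment was represented by 1 library of total RNA, so no difference below has a replicate check and no test of the treatment was possible. What the compound did cannot be told apart from anything else in which these cultures or libraries differed. The members were the protein-coding rows of the deposited gene table whose symbol names a histone of the H1, H2A, H2B, H3 or H4 type, and 78 of 46427 rows are described. Of these, 66 were replication-dependent genes and 12 were variant genes. A symbol rule chose them, set with earlier results of these data known, and 1 gene that matches it is not reported here.

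Core histones H2A, H2B, H3 and H4 form the protein spool around which DNA is wound, and linker histones of the H1 type bind where DNA enters and leaves that spool. Replication-dependent histone genes lie in clusters, lack introns and are expressed mainly in S phase, when new DNA must be packaged. Their mRNAs normally end in a conserved stem-loop bound by the protein SLBP instead of a poly(A) tail, although some of these genes also give polyadenylated transcripts, mainly in cells that have left the cycle. Variant histone genes lie outside the clusters, are mostly polyadenylated and are expressed throughout the cell cycle.

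The libraries held 59139157 estimated counts (iMQT_020) and 67095283 (vehicle), over 23101 and 22643 detected genes. A gene was called measured with a mean scaled count of at least 50 over the libraries, which 14419 genes reached. The ratio was that of scaled counts (CPM, counts relative to library size), iMQT_020 over vehicle, and genes were counted by a 2-fold rule. Intervals of single genes are exact 95% intervals that cover counting error only, and since the counts are estimates they may be too narrow. CDKN2A, a gene deleted in authentic MIA PaCa-2 cells, was at 208 TPM (iMQT_020) and 278 TPM (vehicle), and KRT19, a keratin of ductal cells, was at 0 counts in both libraries. CD44, a cell surface receptor for hyaluronan, had 3 counts (iMQT_020) and 16 counts (vehicle). The keratins KRT8 and KRT18 were at 92.3 and 77.5 TPM (iMQT_020) against 128 and 97.4 TPM (vehicle). VIM was at 438 TPM (iMQT_020) and 403 TPM (vehicle), and ANXA1 at 2.74 TPM (iMQT_020) and 3.13 TPM (vehicle). MTAP and CDKN2B, of the same lost segment as CDKN2A, were at 26.2 and 13.5 TPM (iMQT_020) against 33.7 and 8.05 TPM (vehicle). The levels of CDKN2A, MTAP and CDKN2B go against the label of the line. Of 10 markers of blood, stromal and endothelial cells, 3 (PTPRC, CD3E and DCN) were at 0 in both libraries, and the summed level of the list was 13.1 TPM (iMQT_020) and 18.4 TPM (vehicle), mostly COL1A1 at 11.1 TPM (iMQT_020) and 16.5 TPM (vehicle). PECAM1, an endothelial marker, had 29 counts (iMQT_020) and 0 counts (vehicle). Their part in the results was not tested.

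The class assignment was checked on sequence that neither the symbols nor the expression values used. The stem-loop was searched as GGNNCTTTNNAGNNCC, where N is any base, on the coding strand of GRCh38 in the 150 bases after the stop codon of the canonical GENCODE 44 transcript. It was found after 63 of 66 replication-dependent genes (95.5%), after 1 of 12 variant genes (8.33%) and after 10 of 19821 other protein-coding genes (0.0505%). The 10 other genes included H2AC25, H2BC26, H3-4, H3-7 and H4C16, which are histone genes but not members here. The replication-dependent genes without these letters were H2BC10, H3C6 and H4C13. The variant with a stem-loop was H2AX, a gene known to give both a stem-loop transcript and a polyadenylated one. Several of the sites are shown because they mark the class boundary. Capitals mark the stem-loop, from the first to the last base of the stem, on the coding strand.
H1-2: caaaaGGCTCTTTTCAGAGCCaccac
H2AC6: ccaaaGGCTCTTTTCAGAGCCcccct
H2AC20: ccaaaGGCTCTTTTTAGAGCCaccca
H2BC4: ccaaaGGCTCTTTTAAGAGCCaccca
H2BC12: ccaaaGGCTCTTTTAAGAGCCactta
H2BC21: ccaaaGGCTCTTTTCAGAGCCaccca
H4C14: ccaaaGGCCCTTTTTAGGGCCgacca
H4C15: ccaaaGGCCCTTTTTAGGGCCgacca
H2AX: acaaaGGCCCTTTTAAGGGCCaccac
The sites of H4C14 and H4C15 were the same over all bases shown. The site of H1-2 began 28 bases after the stop codon (chr6:26055744-26055759, minus strand), that of H2BC21 began 57 bases after it (chr1:149886188-149886203, minus strand) and that of H2AX began 50 bases after it (chr11:119094898-119094913, minus strand).

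Replication-dependent histone transcripts were scarce in both libraries and higher in the iMQT_020 library. Summed over all 66 genes, whatever their level, they had 6650 counts in the iMQT_020 library and 2688 in the vehicle library. These sums were 0.0112% of all counts (95% Wilson interval 0.0110% to 0.0115%) in the iMQT_020 library and 0.00401% (0.00386% to 0.00416%) in the vehicle library. The log2 ratio of the sums was 1.48 (1.42 to 1.55), a 2.80-fold higher level in the iMQT_020 library. The summed level per length was 313 TPM (iMQT_020) and 122 TPM (vehicle).

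Of the 66 genes, 14 were measured, and 13 of these passed the 2-fold rule upward, against 1.57% of all 14419 measured genes and 1.23% of the 12665 measured protein-coding genes. None of the 14 passed it downward, against 2.63% of all measured genes and 2.27% of the protein-coding ones. Ratios spread more widely at low counts. Among the 5366 protein-coding genes within the range of mean counts of the 14 (55.2 to 1653), 2.63% passed upward and 4.62% downward, and among those with means of 50 to 200 counts, 8.72% passed upward and 10.6% downward. In bulk RNA, a different share of cells expressing these genes and a different amount of their RNA per cell cannot be told apart. Whether the libraries were made from polyadenylated RNA is not stated in the labels. The median log2 ratio of the 14 was 1.72 (1.18 to 2.21), beside -0.02 over all measured genes. H2AC20 was the member below 0. H2AC6, H2AC11, H2BC4 and H2BC11 had under 50 counts in the vehicle library and reached the minimum through their counts in the iMQT_020 library. With a mean of at least 200 counts, which leaves these genes out, 6 of 6 passed upward, beside 0.547% of all genes.

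**Figure D1:**
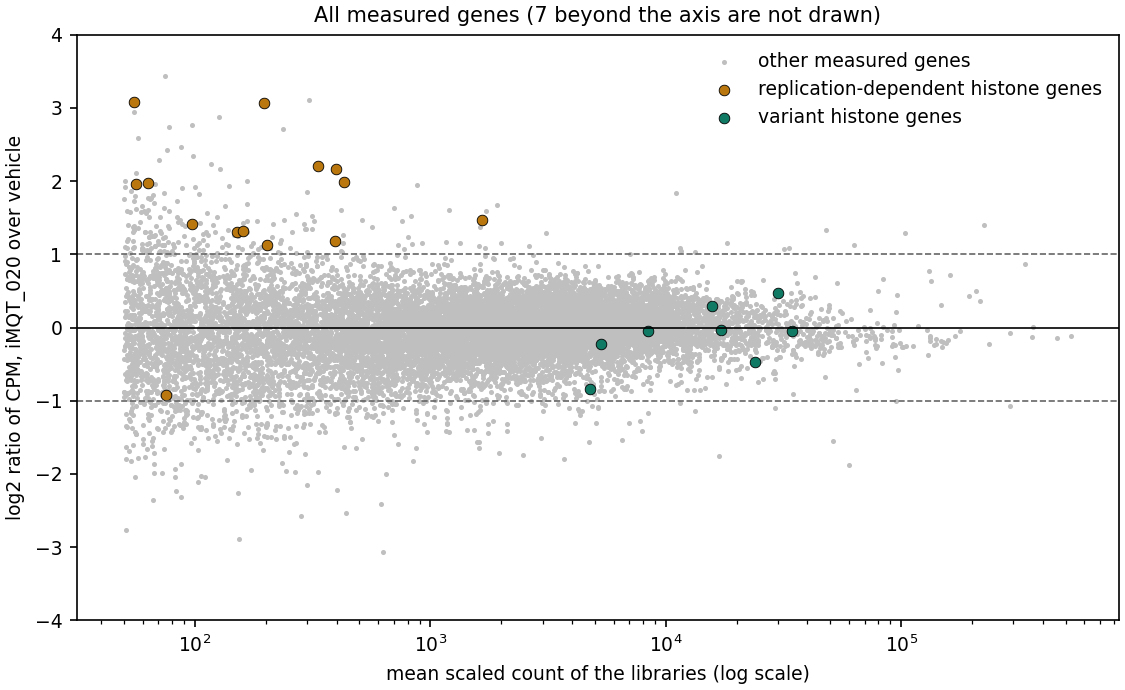
Log2 ratio of CPM, iMQT_020 over vehicle, against the mean scaled count (log scale) for measured genes (7 beyond the axis are not drawn); each point is a gene, with 1 library per group, and dashed lines mark the 2-fold rule. Of 14 replication-dependent histone genes, 13 lie above the upper line, while all 8 variant genes lie between the lines at higher counts.

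The 52 replication-dependent genes below the minimum had 622 counts in all in the iMQT_020 library and 449 in the vehicle library. Their log2 ratio of sums was 0.65 (0.47 to 0.82). Of the 52, 16 were at 0 in both libraries. Of the 36 with counts, 26 had a higher CPM in the iMQT_020 library and 10 a lower one, and the counting interval lay above 0 for 11, below 0 for 1 (H4C4, with 3 counts in the iMQT_020 library and 15 in the vehicle library) and held 0 for 24. The highest counts among them were 52 (iMQT_020) and 53 (vehicle).

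By encoded histone, all 5 sums were higher in the iMQT_020 library, H2B genes most. The 17 H2B genes summed to 3974 counts (iMQT_020) and 1359 (vehicle), with a log2 ratio of 1.72 (1.64 to 1.81). The 14 H4 genes summed to 937 and 409 counts in the iMQT_020 and vehicle libraries, at 1.37 (1.20 to 1.54). The interval of the H2B sum lay above that of the H4 sum.
The 13 H3 genes were at 1.16 (0.92 to 1.41), the 6 H1 genes at 1.09 (0.89 to 1.302) and the 16 H2A genes at 1.06 (0.88 to 1.24). The intervals of the H1, H2A and H3 sums overlapped one another. In summed TPM, the log2 ratios were 1.634 (H2B), 1.303 (H3), 1.148 (H1), 1.103 (H2A) and 0.9986 (H4). H2B was thus the highest in both units, while H4 came next by counts and was the lowest by TPM. By position, the 55 genes on chromosome 6 were at 1.47 (1.39 to 1.55) and the 11 genes on chromosome 1 at 1.52 (1.40 to 1.64), so the sums of the gene clusters on these chromosomes did not differ beyond counting error.

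**Figure D2:**
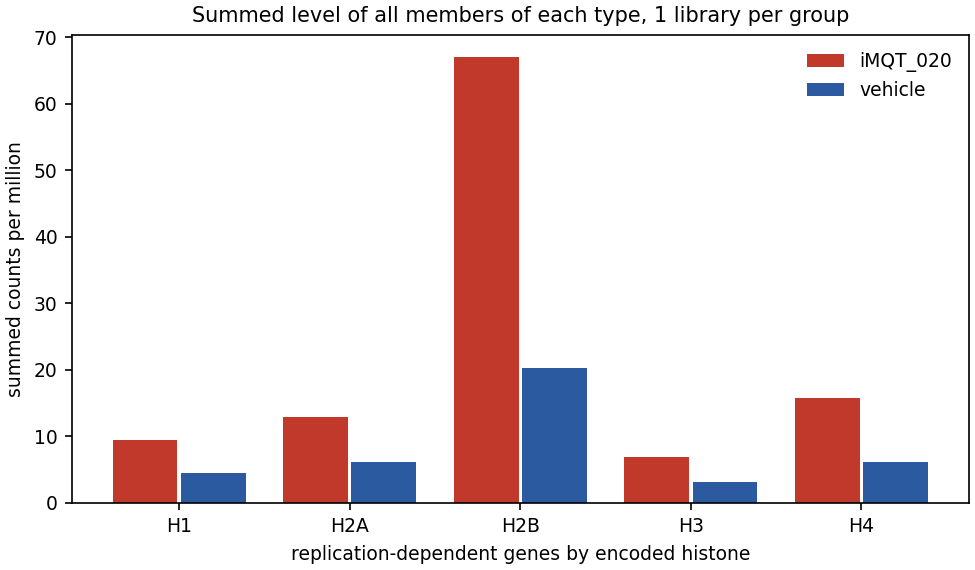
Summed CPM of all replication-dependent genes of each histone type in the iMQT_020 library (red, left) and the vehicle library (blue, right), 1 library each, without error bars. Every red bar is higher than its blue neighbour, and the H2B bars are the tallest at 67.1 (iMQT_020) and 20.3 (vehicle).

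Among linker histones, H1-2 (H1.2, chr6:26055740-26056470 in RefSeq GRCh38.p14) had 513 counts in the iMQT_020 library and 255 in the vehicle library. Its levels were 27.4 TPM (iMQT_020) and 11.7 TPM (vehicle), and its log2 ratio was 1.18 (0.97 to 1.41). It was the measured replication-dependent H1 gene. H1-4 fell just below the minimum, with 41 counts (iMQT_020) and 40 counts (vehicle), and its interval held 0 (-0.45 to 0.88). H1-1 and H1-5 were at 0 in both libraries, H1-3 had 6 counts (iMQT_020) and 2 counts (vehicle), and H1-6, a testis gene, had 1 count (iMQT_020) and 0 counts (vehicle).

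Among measured genes, the one exception to the common direction was an H2A gene. H2AC6 had 95 counts (iMQT_020) and 27 counts (vehicle), at 1.97 (1.36 to 2.67). H2AC11 had 84 counts (iMQT_020) and 24 counts (vehicle), at 1.96 (1.32 to 2.70). Both had under 100 counts in each library, and their levels were 7.11 and 6.61 TPM (iMQT_020) against 1.71 and 1.63 TPM (vehicle).
H2AC18 and H2AC19 are copies of each other on chromosome 1, and 100% and 99.8% of their 50-base stretches occurred in another gene's transcripts, so their reads cannot be told apart. H2AC18 had 201 counts (iMQT_020) and 92 counts (vehicle), and H2AC19 had 214 counts (iMQT_020) and 97 counts (vehicle). Summed, they had 415 counts (iMQT_020) and 189 counts (vehicle), at 1.31 (1.06 to 1.57). H2AC20 had 49 counts in the iMQT_020 library and 105 in the vehicle library. Its levels were 3.84 TPM (iMQT_020) and 7.11 TPM (vehicle), and its ratio was -0.92 (-1.44 to -0.42), so that it was 1.89-fold lower with iMQT_020 and within the 2-fold rule. Of the 50-base stretches of H2AC20, 23.4% also occurred in H2AC18, H2AC19 or another gene.

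All 5 measured H2B genes were higher in the iMQT_020 library, and they included the highest ratios among the measured genes of the class. Some scarcer genes had higher ratios from few counts, such as H4C8 with 19 counts (iMQT_020) and 1 count (vehicle), at 3.85 (1.77 to 9.80). H2BC12 (chr6:27138293-27146858) was the most abundant replication-dependent gene, with 2282 counts (iMQT_020) and 929 counts (vehicle), or 107 TPM (iMQT_020) and 37.99 TPM (vehicle). Its log2 ratio was 1.47 (1.36 to 1.58). Of its 50-base stretches, 57.2% also occurred in other genes, H2BC12L and H2BC6 among them, so part of its reads cannot be told apart from theirs. Its gene model overlaps H4C9, which had 9 counts (iMQT_020) and 0 counts (vehicle). H2BC12 took 34.3% of the class's counts in the iMQT_020 library and 34.6% in the vehicle library, and the ratio of the class without it was 1.49 (1.41 to 1.57).
H2BC21 (chr1:149884459-149886682) had 609 counts (iMQT_020) and 153 counts (vehicle), at 2.17 (1.91 to 2.43). H2BC5 (chr6:26158121-26171349) had 517 counts (iMQT_020) and 126 counts (vehicle), at 2.21 (1.93 to 2.51), and its long gene model overlaps LARP1P1 and H2BC6-AS1. The intervals of these H2B genes overlapped. H2BC4 (chr6:26113170-26123926) had 331 counts (iMQT_020) and 44 counts (vehicle), at 3.07 (2.63 to 3.58), an 8.41-fold higher level in the iMQT_020 library. H2BC11 had 93 counts (iMQT_020) and 12 counts (vehicle), at 3.08 (2.26 to 4.13).
The intervals of H2BC4 and H2BC11 overlapped each other and lay above that of H2BC12, so the ratios of the H2B genes differed among themselves beyond counting error. On log2(FPKM + 1), which understates the ratios of scarce genes, H2BC4 was at 1.19 and H2BC11 at 1.59. H2BC4, H2BC5, H2BC12 and H2BC21 are among the genes known to give polyadenylated transcripts in some cells.

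**Figure D3:**
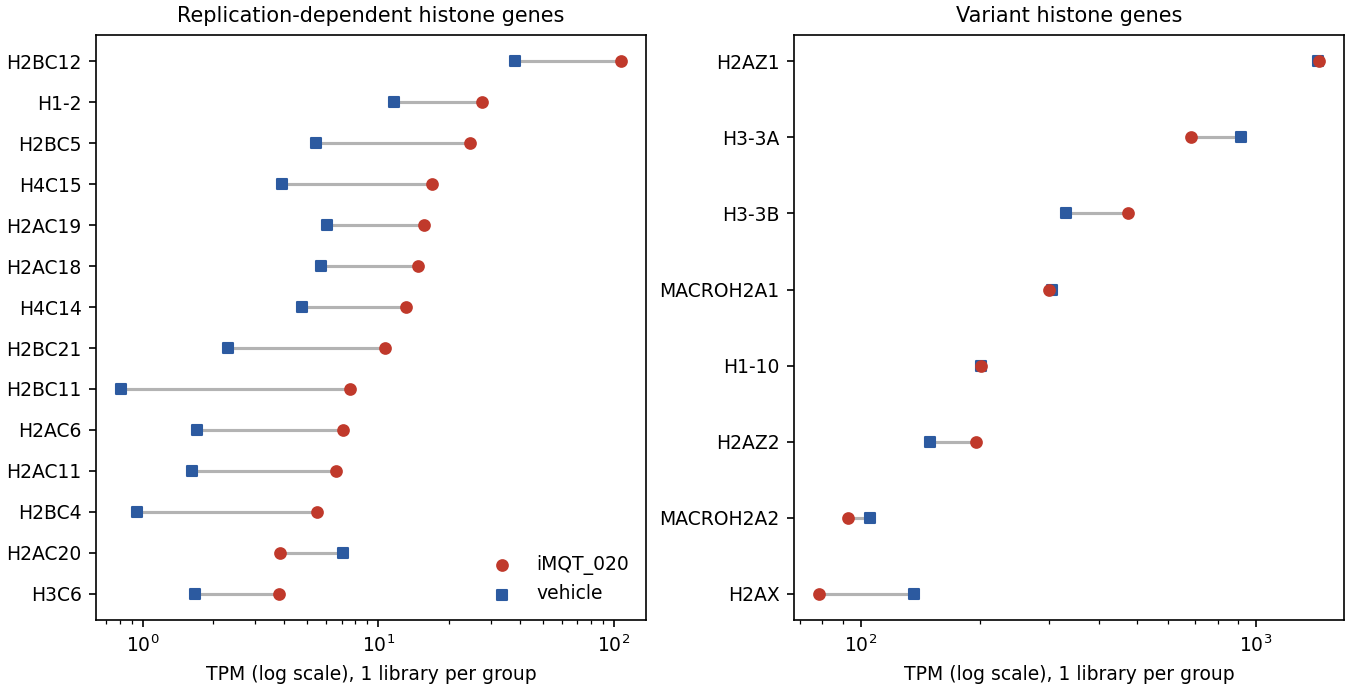
Deposited TPM (log scale) of the 14 measured replication-dependent genes (left) and the 8 measured variant genes (right), with the iMQT_020 library as red circles and the vehicle library as blue squares, 1 library each. In the left panel the red circle lies to the right for every gene but H2AC20, and the levels in the right panel are mostly far higher, from 78.5 TPM for H2AX to 1443 TPM for H2AZ1 in the iMQT_020 library.

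H3 and H4 genes were measured in few cases. H3C6, the measured H3 gene, had 262 counts (iMQT_020) and 135 counts (vehicle), at 1.13 (0.83 to 1.44). It lay within 2-fold on the scales log2(TPM + 1) and log2(FPKM + 1). H4C15 had 645 counts (iMQT_020) and 184 counts (vehicle), at 1.98 (1.75 to 2.23), and its gene model on chromosome 1 overlaps those of H2AC19 and H3C15. H4C14 had 133 counts (iMQT_020) and 56 counts (vehicle), at 1.42 (0.96 to 1.90).
All 50-base stretches of the canonical transcripts of H4C14 and H4C15 were shared, and summed they had 778 counts (iMQT_020) and 240 counts (vehicle), at 1.87 (1.66 to 2.09). H4C11 and H4C12, near copies on chromosome 6, were each below the minimum, H4C11 with 41 counts (iMQT_020) and 53 counts (vehicle) and H4C12 with 44 counts (iMQT_020) and 51 counts (vehicle). Summed they had 85 counts (iMQT_020) and 104 counts (vehicle), at -0.11 (-0.55 to 0.31), an interval that lay below that of the H4C14 and H4C15 sum. Several scarcer genes had the common direction. H3C10 had 52 counts (iMQT_020) and 13 counts (vehicle), H2BC15 had 43 (iMQT_020) and 11 (vehicle), H2AC17 had 43 (iMQT_020) and 19 (vehicle), and H2BC17 had 28 (iMQT_020) and 13 (vehicle). H2AC15 and H3C13 each had 20 counts (iMQT_020) and 4 counts (vehicle), and H3C4 had 20 counts (iMQT_020) and 6 counts (vehicle). Others were near level, with 41 counts (iMQT_020) and 45 counts (vehicle) for H2BC18, 27 (iMQT_020) and 24 (vehicle) for H4C5, and 23 (iMQT_020) and 19 (vehicle) for H2AC13.

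**Figure D4:**
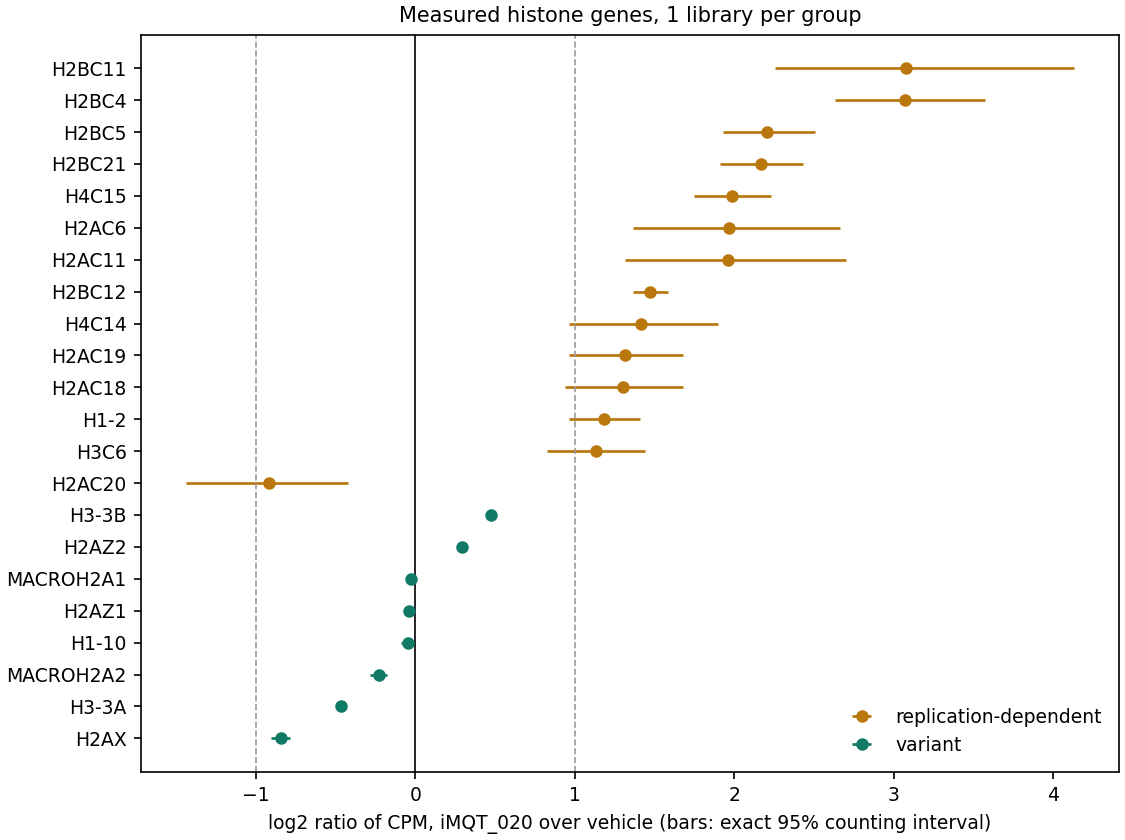
Log2 ratio of CPM, iMQT_020 over vehicle, of the 22 measured histone genes with exact 95% counting intervals as bars, 1 library per group; dashed lines mark the 2-fold rule. Replication-dependent genes run from -0.92 (H2AC20) to 3.08 (H2BC11) and variant genes from -0.85 (H2AX) to 0.47 (H3-3B).

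Gene models that run past the stem-loop held most of the class's counts. Of the 63 replication-dependent genes with a stem-loop, 57 had an annotated RefSeq end within 18 bases after it, and 6 had an end at least 1729 bases after it (H2BC4, H2BC5, H2BC12, H2BC18, H2BC21 and H4C15). The 6 had 4425 counts (iMQT_020) and 1481 counts (vehicle), which were 66.5% and 55.1% of the class's counts in these libraries. Their summed log2 ratio was 1.76 (1.67 to 1.84), and that of the 57 was 1.05 (0.94 to 1.16), from 1963 counts (iMQT_020) and 1072 counts (vehicle). Where in a model the reads lay is not known from the counts. H2BC18, which overlaps FCGR1A, was at 0.04 (-0.60 to 0.69). H2BC10, H3C6 and H4C13, in which the stem-loop letters were not found, entered neither set. Of these, H3C6 was measured, at 1.13 (0.83 to 1.44). Its RefSeq model (chr6:26224178-26227473) is also far longer than its canonical transcript of 482 bases.

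The number of counts per FPKM is proportional to the mean transcript length that the FPKM assumed, so a difference in it between libraries is a difference in the assumed mix of transcripts. Relative to the median gene, this quantity in the iMQT_020 library over the vehicle library was 1.52 for H2BC4, outside the central 95% of 0.90 to 1.11 over 14385 genes with at least 40 counts in each library. The implied mean length of H2BC4 was 2566 bases (iMQT_020) and 1681 bases (vehicle). Its ratio was accordingly lower in TPM, at 2.53 on the log2 scale from 5.48 TPM (iMQT_020) and 0.949 TPM (vehicle). The same quantity was 1.18 for H2BC18, 1.07 for H2BC5 and 0.94 for H4C15. The 13 genes that were at least 2-fold higher by counts were also at least 2-fold higher by the plain ratio of deposited TPM.

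Many H2A and H2B genes are arranged head to head and share the DNA between their starts. In the RefSeq annotation, 11 such pairs of members had starts 193 to 247 bases apart, and 2 of the pairs were at 0 in both libraries. Both genes were measured in 3 pairs. H2BC4 and H2AC6 were both higher in the iMQT_020 library, at 3.07 and 1.97, and so were H2BC11 and H2AC11, at 3.08 and 1.96. H2BC21 and H2AC20 differed in opposite directions, at 2.17 and -0.92, with counting intervals far apart. H2BC12, at 1.47, is paired with H2AC12, which was below the minimum with 18 counts (iMQT_020) and 16 counts (vehicle), at 0.34 (-0.71 to 1.41). The deposited counts do not show how transcripts from either start were processed.
The 250 bases before the start of the H2B gene of the 3 pairs measured on both sides are shown 5′ to 3′ on the strand of that gene, from the RefSeq promoter table of GRCh38.p14. Capitals mark the octamer ATTTGCAT, the binding sequence of OCT1 (POU2F1) known from H2B promoters.
H2BC21, chr1:149886683-149886932, minus strand: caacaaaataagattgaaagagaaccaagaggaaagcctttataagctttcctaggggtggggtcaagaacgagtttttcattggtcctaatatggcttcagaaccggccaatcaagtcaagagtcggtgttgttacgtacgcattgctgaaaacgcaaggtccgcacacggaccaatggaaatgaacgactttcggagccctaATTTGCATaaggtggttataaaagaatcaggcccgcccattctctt
H2BC4, chr6:26123927-26124176, minus strand: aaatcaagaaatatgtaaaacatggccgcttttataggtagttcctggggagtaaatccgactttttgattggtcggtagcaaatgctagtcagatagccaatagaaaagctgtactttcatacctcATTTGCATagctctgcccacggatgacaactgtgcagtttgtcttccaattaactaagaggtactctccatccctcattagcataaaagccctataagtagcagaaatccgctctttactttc
H2BC11, chr6:27132796-27133045, minus strand: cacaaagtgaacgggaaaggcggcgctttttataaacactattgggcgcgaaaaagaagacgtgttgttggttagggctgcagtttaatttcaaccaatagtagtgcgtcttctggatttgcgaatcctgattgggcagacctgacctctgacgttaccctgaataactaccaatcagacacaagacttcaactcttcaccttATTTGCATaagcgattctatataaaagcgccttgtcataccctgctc
The promoter table matched 72 of the 78 members. Searched on both strands, so also as ATGCAAAT, the octamer was found in 14 of 17 H2B promoters (82.4%), 11 of 15 replication-dependent H2A promoters (73.3%) and 1.66% of all 27305 promoters. It was in 1 of 11 replication-dependent H3 promoters and in 0 of 12 H4 promoters and 0 of 6 H1 promoters of that class. The letters CCAAT, or ATTGG on the other strand, were found in all 17 H2B, 15 H2A, 11 H3 and 6 H1 promoters of the class. They were in 3 of 12 H4 promoters of the class and in 8 of 11 variant promoters (72.7%), against 33.0% of all promoters. The letters are a description of these windows and not evidence of binding. Starts of a pair lie under 250 bases apart, so its windows overlap and 1 octamer can be counted for both genes. The shares of H2B and H2A promoters are therefore not independent. Both genes of the H2BC21 and H2AC20 pair were counted with the octamer in these overlapping windows, and H2BC5, at 2.21, had none in its window.

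Variant histone genes had far more counts, and their sum was level between the libraries. Whether polyadenylated RNA was selected is not stated, so the relative abundance of the classes in the cells is not known from these levels. The 12 genes had 131343 counts (iMQT_020) and 148293 counts (vehicle), or 3473 TPM (iMQT_020) and 3585 TPM (vehicle). The log2 ratio of the summed counts was 0.0012 (-0.0096 to 0.012), beside 1.48 for the replication-dependent sum, and the interval of the variant sum lay wholly below that of the replication-dependent sum. Replication-dependent genes made up 8.26% of the summed TPM of these histone genes in the iMQT_020 library and 3.30% in the vehicle library. Of the 8 measured variant genes, 0 passed the 2-fold rule upward (1.57% of all measured genes did) and 0 downward (2.63% did), 2 had a ratio above 0 and 6 below, and the median log2 ratio was -0.04 (-0.85 to 0.47). Among all protein-coding genes with a mean of at least 1000 counts, 0.216% passed the rule upward and 0.693% downward. H1-7 and H1-8, which belong to germ cells, were at 0 in both libraries, H2AJ had 0 counts (iMQT_020) and 2 counts (vehicle), and H3-5 had 17 counts (iMQT_020) and 9 counts (vehicle).

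H1-10 (H1.X), a linker variant, had 7789 counts (iMQT_020) and 9084 counts (vehicle), at -0.05 (-0.09 to -0.0018), and was at 201 TPM in each library.

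H2AX, whose phosphorylated form marks DNA breaks, had the lowest ratio of the measured variants. It had 3190 counts in the iMQT_020 library and 6480 in the vehicle library, or 78.5 and 137 TPM. Its log2 ratio was -0.85 (-0.91 to -0.78), or 1.80-fold lower with iMQT_020. Centred on genes of like GC content and length, the ratio was -0.43. Although H2AX carries a stem-loop, its ratio lay below 0 like that of H2AC20 and unlike those of the other measured members with a stem-loop. Its gene overlaps DPAGT1, and the counting is not stated to use strand, so reads of the overlap cannot be told apart.

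For H2A.Z and H3.3, the proteins encoded by each pair of genes are nearly or fully identical, and the genes of a pair differed. H2AZ1 had 31895 counts (iMQT_020) and 37074 counts (vehicle), at -0.04 (-0.06 to -0.02). H2AZ2 had 16234 counts (iMQT_020) and 14997 counts (vehicle), at 0.29 (0.26 to 0.32). H2AZ1 was the more abundant per length, at 1443 TPM against 196 TPM for H2AZ2 in the iMQT_020 library and 1436 TPM against 150 TPM in the vehicle library.
H3-3A had 18955 counts (iMQT_020) and 29557 counts (vehicle), at -0.46 (-0.49 to -0.44). H3-3B had 32765 counts (iMQT_020) and 26683 counts (vehicle), at 0.47 (0.45 to 0.50). Their summed counts, 51720 (iMQT_020) and 56240 (vehicle), gave a ratio of 0.06 (0.04 to 0.07), while their summed TPM, 1161 (iMQT_020) and 1250.0 (vehicle), gave -0.11. Of the 50-base stretches of H3-3A, 72.7% also occurred in other genes, the pseudogenes H3P6 and H3P16 among them, and 8.3% of those of H3-3B did. In TPM, H3-3A was at 687 (iMQT_020) and 919 (vehicle) and H3-3B at 474 (iMQT_020) and 331 (vehicle), so H3-3A was the higher of the pair in both libraries.

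The macroH2A genes encode H2A variants with a large extra domain that are enriched on silent chromatin. MACROH2A1 had 15929 counts (iMQT_020) and 18345 counts (vehicle), at -0.03 (-0.06 to 0.0032), an interval that held 0. MACROH2A2 had 4569 counts (iMQT_020) and 6062 counts (vehicle), at -0.23 (-0.29 to -0.18). CENPA, the centromeric H3 variant, which is not a member, had 1397 counts (iMQT_020) and 2272 counts (vehicle), at -0.53 (-0.62 to -0.43).
H2AW and H2BU1, further H2A and H2B genes whose symbols lie outside the rule, were chosen after their values were seen. H2AW had 606 counts (iMQT_020) and 360 counts (vehicle), at 0.93 (0.74 to 1.12), within the 2-fold rule. H2AW had more counts than any replication-dependent H2A member in both libraries, and it enters no class value. H2BU1, below the minimum, had 52 counts (iMQT_020) and 32 counts (vehicle), at 0.87 (0.21 to 1.56). It is the gene named H2BC26 in the stem-loop search, where a stem-loop was found, and it also enters no class value. Others outside the rule and below the minimum had intervals that held 0, except H3-4. H3-4 had 6 counts (iMQT_020) and 0 counts (vehicle), and its interval lay above 0. H2BW2 had 37 counts (iMQT_020) and 49 counts (vehicle), at -0.23 (-0.89 to 0.42). H2BW1 had 32 counts (iMQT_020) and 35 counts (vehicle), at 0.05 (-0.69 to 0.78), and H4-16 had 14 counts (iMQT_020) and 9 counts (vehicle).

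Genes that act on histone transcripts and proteins passed the 2-fold rule in 1 of 100 measured cases, 0 upward and 1 downward, beside 1.57% of all measured genes upward and 2.63% downward, so the share was near that of all genes. Of 12 genes for transcription of replication-dependent histone genes, 5 had a ratio above 0 and 7 below, and the list median was -0.02 (-0.46 to 0.29). NPAT, the coactivator at histone gene clusters, was at -0.02 (-0.09 to 0.05), and CASP8AP2 (FLASH), which acts in transcription and end processing, at -0.02 (-0.07 to 0.04). The S-phase transcription factor E2F1 was at -0.77 (-0.84 to -0.70), CDK2, the kinase that phosphorylates NPAT, at -0.46 (-0.51 to -0.41), and TRRAP, a scaffold of acetyltransferase complexes, at 0.47 (0.43 to 0.50). NPAT and CASP8AP2 were thus level within counting error.

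Of 23 genes for 3' end processing and stem-loop binding, 10 had a ratio above 0 and 13 below, and the list median was -0.05 (-0.10 to 0.08). SLBP had 5023 counts (iMQT_020) and 6431 counts (vehicle), at -0.18 (-0.23 to -0.13). In deposited TPM, SLBP was at 64.9 (iMQT_020) and 103 (vehicle). LSM11, a subunit of the U7 particle that directs histone end cleavage, was at -0.23 (-0.32 to -0.15), MBLAC1, a nuclease for histone transcript ends, at -0.44 (-0.82 to -0.07), CPSF1, a subunit of the polyadenylation complex, at -0.31 (-0.36 to -0.26), and ZNF473, a U7-associated zinc finger protein, at 0.24 (0.14 to 0.34).
Of 19 genes for histone mRNA decay, 10 had a ratio above 0 and 9 below, and the list median was 0.07 (-0.09 to 0.37). The exonuclease XRN1 was at 0.47 (0.41 to 0.52), the uridylyltransferase TUT7 at 0.45 (0.37 to 0.52) and the decapping factor DCP1A at 0.43 (0.37 to 0.49).

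The list of replication-coupled histone chaperones and their partners held 22 genes, 7 with a ratio above 0 and 15 below. The list median was -0.12 (-0.32 to 0.04). MCM2, a helicase subunit that also binds histones, was at -0.53 (-0.57 to -0.50), CHAF1B, a subunit of chromatin assembly factor 1, at -0.45 (-0.51 to -0.38), TONSL, a reader of new histones, at -0.41 (-0.46 to -0.36), and NASP, a histone chaperone, at -0.23 (-0.26 to -0.21). The 4 named ones all lay below 0 but do not stand for the list, in which TSPYL2 was at 0.41 and SPTY2D1 at 0.35.
Of 24 genes for variant deposition and removal, 14 had a ratio above 0 and 10 below, the list median was 0.13 (-0.12 to 0.39), and 1 passed the 2-fold rule downward, beside 2.63% of all measured genes. That gene was VPS72, which had 2325 counts (iMQT_020) and 5646 counts (vehicle), at -1.10 (-1.17 to -1.03). ZNHIT1 was at -0.68 (-0.77 to -0.59) and SRCAP at 0.65 (0.63 to 0.68). All 3 encode subunits of the complex that places H2A.Z, so subunits of 1 complex differed in opposite directions.

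**Figure D5:**
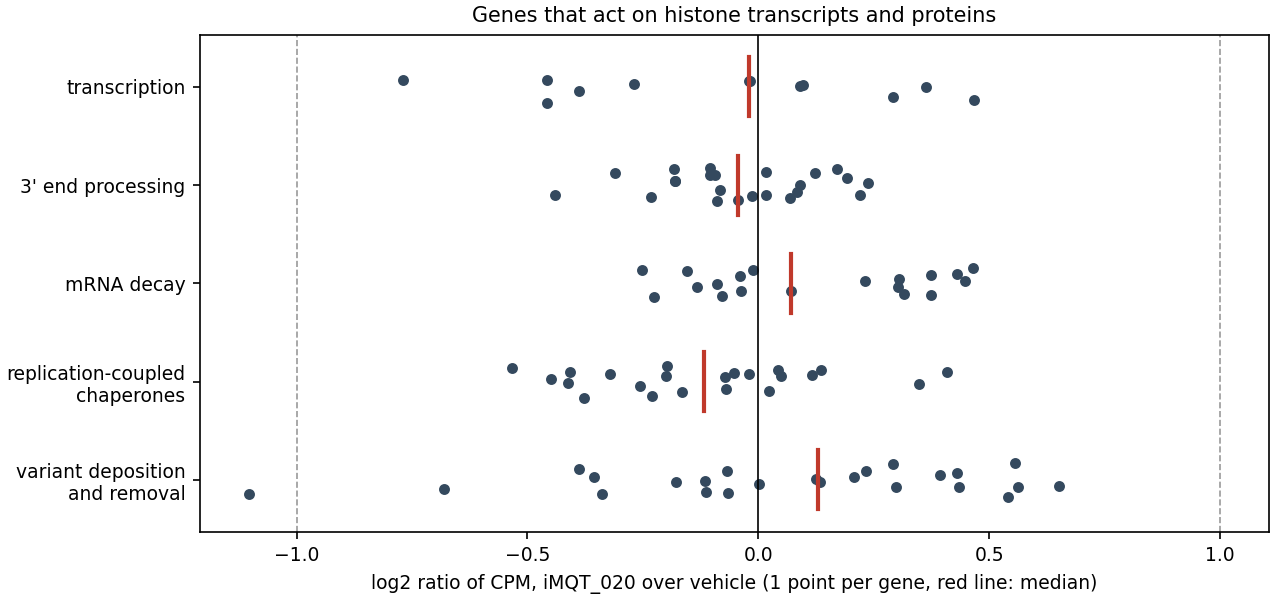
Log2 ratio of CPM, iMQT_020 over vehicle, of the 100 measured genes in 5 lists, 1 point per gene, with the list median as a red line and the 2-fold rule as dashed lines; vertical scatter within a list has no meaning. List medians lie between -0.12 and 0.13, and VPS72 is the point below -1.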

How the data were processed

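Per the labels' protocols, TRIzol was used to prepare total RNA, and HISAT2 with Bowtie2 aligned the reads to GRCh38. The submitters' processing notes also list StringTie and edgeR, giving no version. Whether poly(A) RNA was selected, how reads were counted and whether strand was used were not given in the sources used here. The authors deposited estimated counts per gene, written as whole numbers, and FPKM and TPM values, which the authors scaled by transcript length and by library. With 0 columns unassigned, columns were matched to samples by name.

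Counts were scaled by TMM in edgeR 4.0.16 (R 4.3.3), with factors of 1.00 (iMQT_020) and 0.998 (vehicle), and the log2 ratio used a prior count of 0.5. The mean of the scaled counts set the minimum of 50. Exact Clopper-Pearson 95% intervals of ratios, Wilson intervals of shares and order-statistic intervals of medians (the range, for under 6 genes) cover counting error or spread over genes, and reads without molecular identifiers are not independent molecules. The computation of ratios and intervals was checked on simulated counts. Every measured member was named, and of the others those with at least 20 counts in a library (scarcer ones were named to complete a family or pair); of the lists, SLBP, NPAT, CASP8AP2, LSM11, NASP, CENPA and the 3 genes with the largest absolute ratio in each list. Of the genes that match the symbol rule, 1 is not reported here and enters no class value. Members and lists were chosen with earlier results of these data known. Positions came from RefSeq GRCh38.p14, which matched all 78 members described, and transcripts from GENCODE 44. Alternatives were another scaling (DESeq2 1.42.0 for median of ratios), minimum, prior count, fold rule or unit, centring on GC content and length, and other sets of members. Python 3.11.15 was used with numpy 2.4.6, pandas 2.3.3, scipy 1.17.1 and matplotlib 3.10.9.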

Additional observations from a re-analysis of the deposited data

How the results depend on the processing

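No paired analysis was possible because each group holds 1 library, and for the same reason no library could be left out. The 13 replication-dependent genes passed the 2-fold rule under each alternative in which they were measured, except H3C6 with log2(TPM + 1) and log2(FPKM + 1). Their number followed the minimum count. With a mean of at least 10 counts, 21 of 34 were at least 2-fold higher (4.90% of all genes), with at least 200, 6 of 6 (0.547%), and with no minimum, 30 of 50 (14.1%), with 2 lower (11.1%), where 1 variant gene was higher and 1 lower; 1 variant gene was higher with a mean of at least 10 counts. A 1.5-fold rule added 1 lower gene in each class, H2AC20 and H2AX.

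Against 1.72, the replication-dependent median was 1.01 over 34 genes with 1 TPM or more in a library on log2(TPM + 1) and 1.05 over 19 genes with 1 FPKM or more in a library on log2(FPKM + 1); over the 14 measured genes alone it was 1.501 and 1.146 on these scales. Against 1.48, the sum was 1.36 in TPM, 1.31 in FPKM, 1.355 without members that overlap another gene, and 0.28 with H2AX moved into the class, where H2AX held more counts than the class in the vehicle library. Against 0.0012, the variant sum was -0.011 with median of ratios, -0.046 in TPM, -0.092 in FPKM, 0.215 without overlapping members and 0.030 without H2AX. Merging near-identical copies and removing H2BC12 were chosen after seeing the data. Removing H2BC12 gave a replication-dependent sum ratio of 1.49. Merging adds the counts of copies, so it cannot change that sum and does not test it. After merging, 13 entries of the class reached the minimum, 11 passed the 2-fold rule upward, and their median was 1.87. H4C11 and H4C12, merged, then reached the minimum, at -0.11. Centring on GC content and length, possible for 94.2% of measured genes, gave medians of 1.98 (replication-dependent) and 0.06 (variant); sums have no centred value. On log2(FPKM + 1), H2AC6 was at 1.17, H2AC11 at 1.12 and H2BC21 at 1.44. H2AZ1, H1-10 and MACROH2A1, with ratios near 0, changed sign under up to 3 alternatives. Of 66 replication-dependent genes, 52 lay below the minimum, which limits their values, and with 1 library per group the spread between cultures is unknown.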
